A study of Homo sapiens with 14 samples.

Results

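The 30 genes described here encode 22 matrix metalloproteinases, the 4 tissue inhibitors of metalloproteinases (TIMPs), the plasminogen activators PLAU and PLAT, the PLAU receptor PLAUR and SERPINE2, an inhibitor of plasminogen activators and thrombin. They were taken from a list of gene names, and a probe was counted as a member where the accession in its annotation belonged to one of them. All 30 were represented, by 33 of 50599 probes, with 2 probes each for MMP19, MMP25 and PLAU and 1 for every other gene. Of the 50599 probes, 29033 could be named, for 20992 genes.

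Metalloproteinases are zinc-dependent enzymes that cut collagens, laminins, proteoglycans and other proteins around the cell. They are made as inactive precursors and are held in check by the TIMPs. PLAU (urokinase) and PLAT (tissue plasminogen activator) cut plasminogen into plasmin, a broad protease that dissolves fibrin and can itself activate some metalloproteinases, and PLAUR holds PLAU at the cell surface. In glioblastoma these enzymes are studied because the tumor spreads by invading the surrounding brain.

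RNA was measured on 14 one-colour Agilent arrays, on which the brightness of each printed probe reports the amount of its RNA. A172 and U87 (U87-MG) are established human glioblastoma cell lines, each a single culture model without the other cells of a tumor. Both were electroporated either with a negative control siRNA or with an siRNA against exon 1 of the long noncoding RNA LINC00152 (CYTOR). The labels give 40 h of culture after this, while the paper's text gives a longer time for the arrays. There were 3 independent experiments per siRNA in A172 and 4 in U87, and the replicate number in the labels, here called the set, was used to pair each control array with a knockdown array. The labels do not number the siRNA, and the study lists more than 1 against exon 1. The one it names for its own knockdown measurements in both lines is shown, because the treated groups are defined by such an siRNA.
siLINC00152 #1: tgcctgtcttcagatcttcacagca

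Values below are log2 processed signals relative to the 75th percentile of the same array, so that 1 unit is a doubling and 0 is the level of the 75th percentile. The scanner software calls each spot well above background or not, and a probe was tested in a line where either siRNA group had at least 3 such arrays. Spots well above background made up 57.3 to 69.0% of all spots on the A172 arrays and 35.7 to 48.3% on the U87 arrays. The U87 control array of set 3 stood apart, with the lowest share (35.7%), the lowest 75th percentile (33.0 signal units) and a mean correlation of 0.888 with the other U87 control arrays, and values without set 3 are given beside several U87 results. The 6 A172 arrays lay on 3 slides, 1 set on each, and the 8 U87 arrays on 1 other slide, so levels in the lines cannot be told apart from levels on the slides.

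The targeted RNA was lower in every knockdown array. In the A172 control arrays of sets 1 to 3 the CYTOR probe measured 2.63, 2.44 and 2.48, and in the knockdown arrays 0.23, -0.42 and -0.10. In U87 it measured 1.94, 1.83, 1.71 and 1.82 in the controls of sets 1 to 4 and -1.21, -0.88, -0.74 and -0.79 after knockdown. The groups did not overlap in either line, and the fitted log2 fold changes were -2.61 ± 0.24 (SE) in A172 and -2.73 ± 0.21 in U87, with limma adjusted p = 0.000731 and 4.96e-05. Probes annotated to another noncoding RNA gene, MIR4435-2HG, were lower too. Probe A_21_P0012079 differed by -2.44 in A172 and -2.97 in U87, and A_21_P0012078 by -1.53 and -2.08. Probe A_33_P3269678 differed by -0.31 in each line. Whether these probes also read LINC00152 RNA was not tested.

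Of the 30 genes, PLAU was the member called in both lines, higher after knockdown in all 4 U87 pairs and lower in all 3 A172 pairs. MMP24 was lower in all 3 A172 pairs. MMP2 was called lower in A172, but was above background on no knockdown array there, so the order within its pairs is not shown. In all 4 U87 pairs 1 of the 2 MMP25 probes was lower. In the fits used here these calls were made only with the set number as a block. With the block, PLAU kept its U87 calls in all 10 other processing settings and all 7 fits that left out 1 set. In A172 PLAU kept its call in 4 of 10 and 2 of 7. The study's own table of U87 targets, from its own processing, lists the PLAU probe A_33_P3306146 as higher after knockdown. Without the block, limma called 0 of 22 tested member probes in A172, where 52 of 28338 probes (0.183%) were called, and 0 of 20 in U87, where 11 of 21921 (0.0502%) were called, at an adjusted p under 0.2 and an absolute log2 fold change over 0.5. At an unadjusted p under 0.05 there were 2 member probes in A172 and 2 in U87, beside 2.28% and 2.31% of all tested probes. With the block, 3 of 22 member probes were called in A172, all lower, beside 3.26% of all tested probes, and 3 of 20 in U87, 2 of them higher, beside 4.19%. These counts include MMP2 in A172 and MMP25 in U87, which passed the detection filter through the control group alone and so had to be lower after knockdown to differ. The median log2 fold change was -0.12 over the tested member probes and 0.02 over all tested probes in A172, and -0.01 and -0.02 in U87.

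**Figure D1:**
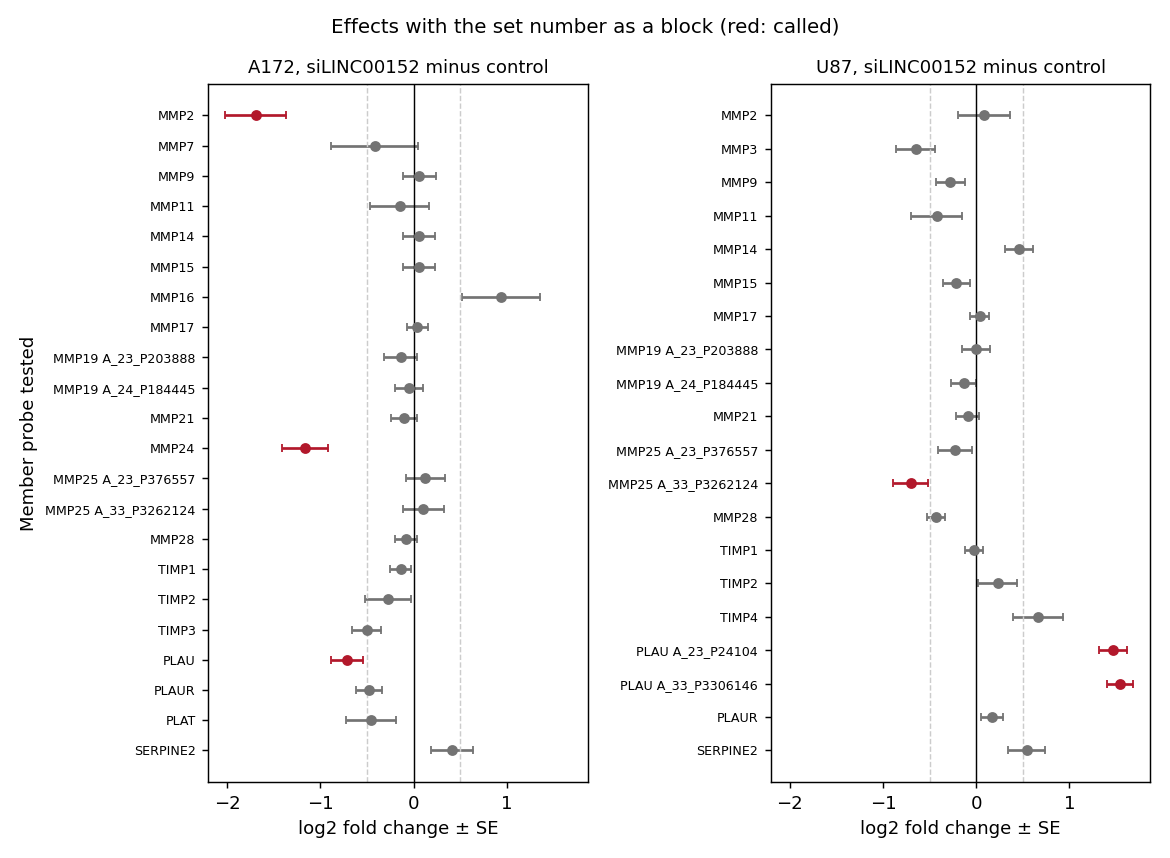
Log2 fold change (siLINC00152 minus control) of the 22 member probes tested in A172 and the 20 tested in U87, with the set number as a block. Bars are standard errors, dashed lines mark 0.5 in either direction, and red points (MMP2, MMP24 and PLAU in A172, MMP25 and both PLAU probes in U87) passed both thresholds. MMP2 in A172 and MMP25 in U87 entered their tests through the control group alone.

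The members differed widely in detection. A gene was taken as detected in a line where any of its probes was well above background on a share of at least 0.5 of the arrays of a group. By this measure 16 of the 30 genes were detected in both lines, 5 in A172 alone (MMP1, MMP7, MMP16, TIMP3 and PLAT), 2 in U87 alone (MMP3 and TIMP4) and 7 in neither. Of these 7, MMP12 was well above background on 1 A172 control and 1 A172 knockdown array, and MMP8, MMP10, MMP13, MMP20, MMP26 and MMP27 on none of the 14 arrays. The 22 tested probes of A172 stand for 20 genes and the 20 of U87 for 17.

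**Figure D2:**
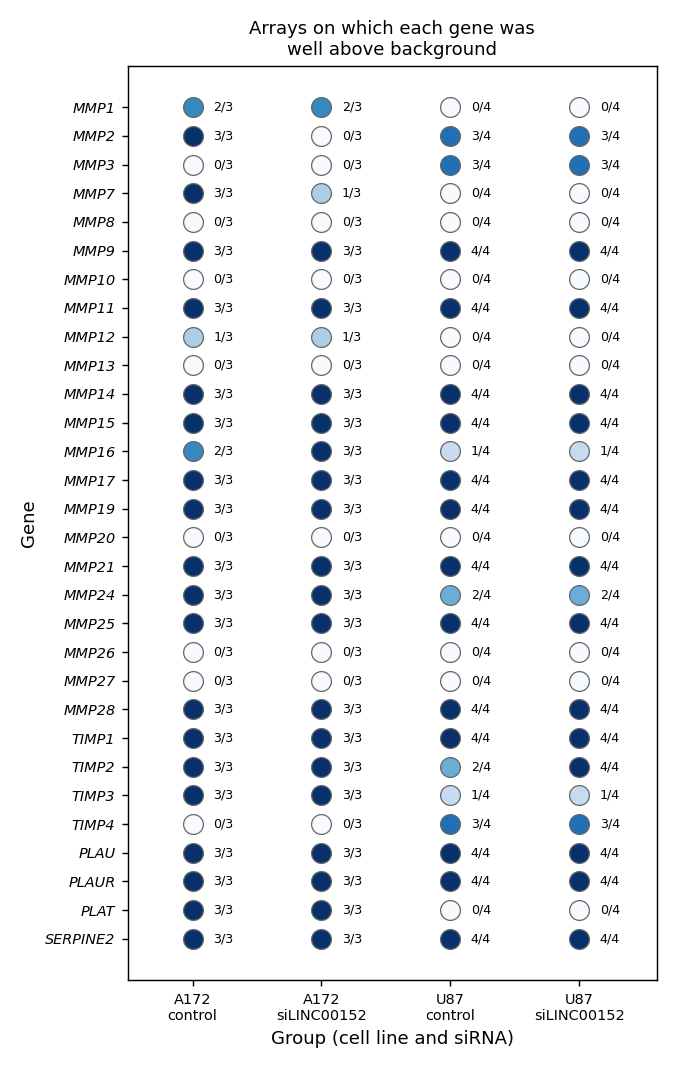
Number of arrays on which each of the 30 genes was well above background, in the control and siLINC00152 groups of A172 (3 arrays each) and U87 (4 arrays each). Darker circles stand for a larger share of the arrays, and the value beside each circle is the count for the gene's most often detected probe.

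Detection was also counted by position in the genome. In RefSeq's gene order, 9 members are neighbours on chromosome 11 (MMP7, MMP20, MMP27, MMP8, MMP10, MMP1, MMP3, MMP12 and MMP13), with no other protein-coding gene between them. Of these 9, 2 were detected in A172, 1 in U87 and none in both, whereas 11 of the 13 metalloproteinases that lie elsewhere were detected in both lines. No test of this difference was made. Promoter windows of 300 bases (250 before to 50 after the start) were held by RefSeq's table (GRCh38.p14) for 17 of the 30 members. TGANTCA, where N is any base, is a loose form of TGACTCA or TGAGTCA, the letters bound by AP-1 factors. It is the same on both strands apart from the middle base. A match was found in 4 of these 17 members, against 7.71% of 35116 promoters. It is shown in capitals for these 4, because AP-1 is a textbook regulator of metalloproteinase genes. In MMP10 and MMP20 the middle base is A, so these matches are not the AP-1 letters themselves. GGGCGG was found in 9 of the 17 and TATAA, the letters of a TATA box, in 8, against 45.0% and 20.4% of all promoters, each searched on both strands. A match is a description of the letters and not a site.
MMP7 (chr11:102530798-102530824, minus strand): aacactcaaaTGAGTCAcctatttcca
MMP10 (chr11:102780679-102780705, minus strand): aacacatgcaTGAATCAtactgttggt
MMP20 (chr11:102625428-102625454, minus strand): gtttgagacaTGAATCAtccttgctcg
PLAUR (chr19:43670339-43670365, minus strand): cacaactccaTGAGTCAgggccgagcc
PLAUR was detected on every array, MMP7 on 3 control arrays and 1 knockdown array of A172, and MMP10 and MMP20 on none.

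PLAU was read by 2 probes annotated to different RefSeq transcripts. In U87, probe A_23_P24104 measured 2.54, 2.72, 1.67 and 2.69 in the controls of sets 1 to 4 and 3.93, 3.9, 3.63 and 4.05 after knockdown. Every knockdown array lay above every control array, with set 3 the lowest of both groups. The second probe, A_33_P3306146, measured 1.54, 1.58, 0.66 and 1.63 in the controls and 2.87, 3.01, 2.70 and 3.01 after knockdown, again without overlap. PLAU mRNA was thus higher by 1.47 ± 0.15 (SE) and 1.55 ± 0.14 on the log2 scale, or 2.77-fold and 2.92-fold, with adjusted p = 0.0116 and 0.00764 in limma with the set as a block and 0.504 and 1.00 without it. Without set 3 the differences were 1.31 and 1.38, with adjusted p = 0.0291 and 0.0116 with the block.

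In A172 the order was the opposite. Probe A_23_P24104 measured -1.33, 0.01 and -1.0 in the controls of sets 1 to 3 and -2.13, -0.88 and -1.46 after knockdown. Each pair was lower after knockdown, although the groups overlapped, with set 2 the highest in both. The difference was -0.71 ± 0.17 (SE, adjusted p = 0.140 with the block and 1.00 without it). The blocked call was lost in 6 of 10 processing settings, among them the authors' deposited values (-0.62) and normexp background correction (-0.37), and without any 1 set of A172, at adjusted p = 0.359 to 0.564. Leaving out single arrays moved the difference between -0.32, without the control array of set 2, and -1.02, without the knockdown array of set 2, and to -0.39 without the knockdown array of set 1. Probe A_33_P3306146 was well above background on 2 of 3 arrays of each A172 group and was not tested. It measured -4.42, -2.08 and -2.86 in the controls and -5.12, -2.61 and -3.60 after knockdown, lower in each pair.

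**Figure D3:**
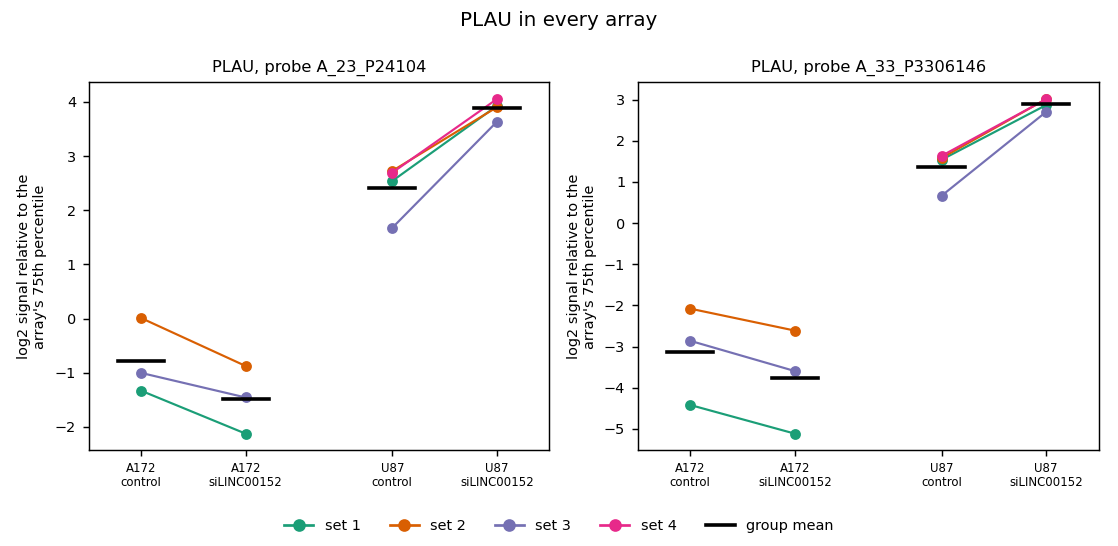
Log2 signal of the 2 PLAU probes relative to the array's 75th percentile, for every control and siLINC00152 array of A172 and U87. Lines join the arrays of 1 set and black bars are group means, and all 4 U87 lines go up while all 3 A172 lines go down.

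The knockdown effects on PLAU in the lines differed by -2.18 ± 0.23 (A172 minus U87, SE) for probe A_23_P24104, with adjusted p = 0.0412 with the set as a block and 1.00 without it. Of 7 blocked fits that left out 1 set, 3 kept this call, and the difference lay between -2.31 and -2.02 in all 7. It was the 1 member probe of 17 tested in both lines that was called for this difference, beside 0.421% of 21163 probes. Without the block, 0 of 17 were called in limma, beside 0.00945% of all probes, and 1 had an unadjusted p under 0.05, beside 0.789% of all probes.

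**Figure D4:**
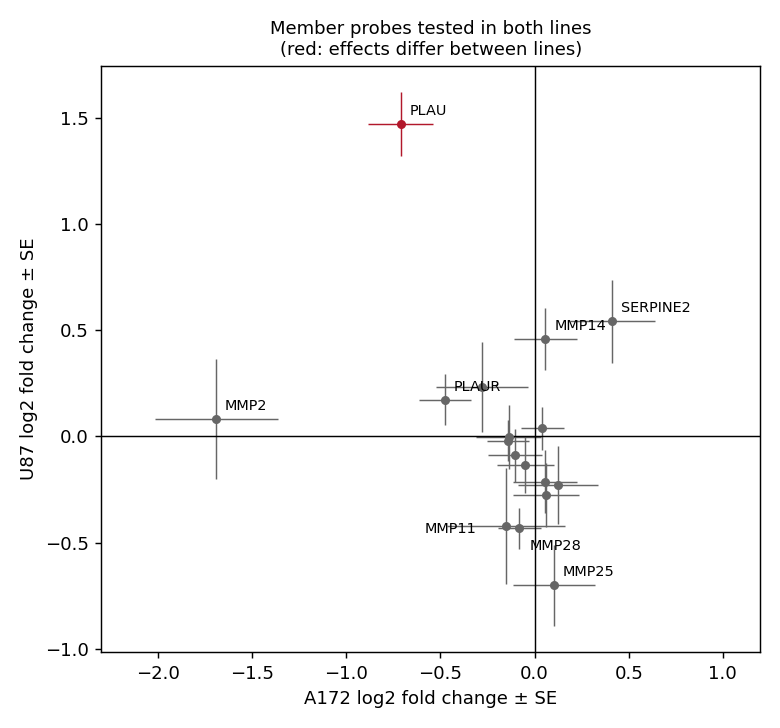
Log2 fold change in A172 (horizontal) and U87 (vertical) for the 17 member probes tested in both lines, with the set number as a block and standard errors as bars. PLAU, in red, lies at -0.71 in A172 and 1.47 in U87 and is the point whose difference between lines was called.

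RefSeq's table holds 2 start sites for PLAU, on the plus strand of chromosome 10. Their windows are shown because PLAU was the member called in both lines, and capitals mark GGGCGG or, on the other strand, CCGCCC, the letters of the GC box. The first window holds 0 and the second 3, and 45.0% of all promoters hold at least 1. Which probe reads RNA from which start cannot be told from these windows.
PLAU window 1 (chr10:73910360-73910659): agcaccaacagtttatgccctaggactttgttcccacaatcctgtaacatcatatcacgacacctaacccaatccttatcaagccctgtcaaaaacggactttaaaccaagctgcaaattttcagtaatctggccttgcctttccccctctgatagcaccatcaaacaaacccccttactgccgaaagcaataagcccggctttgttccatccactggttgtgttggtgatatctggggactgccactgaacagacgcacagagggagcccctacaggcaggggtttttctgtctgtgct
PLAU window 2 (chr10:73910882-73911181): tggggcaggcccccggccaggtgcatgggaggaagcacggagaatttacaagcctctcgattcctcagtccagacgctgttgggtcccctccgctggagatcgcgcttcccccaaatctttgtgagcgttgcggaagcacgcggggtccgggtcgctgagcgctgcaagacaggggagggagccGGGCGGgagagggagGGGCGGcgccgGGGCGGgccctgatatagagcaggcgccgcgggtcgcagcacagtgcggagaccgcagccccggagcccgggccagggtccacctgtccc

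The other members of the plasminogen system were not called. PLAUR, the receptor of PLAU, was lower in all 3 A172 pairs and higher in all 4 U87 pairs, but by -0.48 ± 0.14 (SE) and 0.17 ± 0.12, with adjusted p = 0.219 and 0.478 with the block. The U87 difference was 0.39 without the control array of set 3 and -0.04 without the knockdown array of set 3, and the A172 difference was -0.27 without the control array of set 2. PLAT was well above background on all 6 A172 arrays and on no U87 array, and its A172 difference was -0.46 ± 0.27 (adjusted p = 0.684 with the block), or -0.09 without the control array of set 2. SERPINE2 was among the members whose brightest probe moved the same way in all 7 pairs. It measured 4.19, 3.41 and 3.20 in the A172 controls and 4.37, 3.88 and 3.78 after knockdown, and 3.09, 3.27, 1.47 and 3.66 in the U87 controls and 3.42, 3.56, 2.81 and 3.86 after knockdown. Every pair was higher after knockdown and the groups overlapped in both lines. The differences of 0.41 ± 0.23 and 0.54 ± 0.20 did not pass (adjusted p = 0.645 and 0.232 with the block), and the U87 difference was 0.28 without set 3 and 0.075 without its control array alone, the lowest. In A172 leaving out single arrays moved the difference between 0.21, without the control array of set 3, and 0.71, without that of set 1.

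Among the secreted metalloproteinases, the gelatinases MMP2 and MMP9 cut denatured collagen and the collagen IV of basement membranes. MMP2 was well above background on all 3 A172 control arrays, at -4.0, -2.74 and -3.12, and on no A172 knockdown array, where it measured -5.60, -5.19 and -4.14. The knockdown spots were not above background, so their order against the controls is not shown. The knockdown arrays therefore give only a bound. Each was set at the higher of MMP2's own value and the lowest value of any probe well above background on that array. With this floor the knockdown mean was 1.49-fold below the control mean. A higher floor would give a smaller value, so 1.49-fold is not a strict minimum. The fitted difference had adjusted p = 0.0710 with the block and 1.00 without it. MMP2 entered the A172 test through the control group alone. With the block and normexp background correction, which holds dim spots away from 0, the difference was -0.13 and the call was lost, and adjusted p ranged from 0.0695 to 0.607 over the blocked alternatives. Without set 1 or set 2 of A172 the call was lost as well, at adjusted p = 0.302 and 0.367. In U87 it was well above background on 3 of 4 arrays of each group, and its pairs went both ways, 2 higher and 2 lower, with a difference of 0.08, or -0.21 without set 3. The study's own primers for MMP2 are shown so that the transcript can be located.
MMP2 forward: atgacagctgcaccactgag
MMP2 reverse: atttgttgcccaggaaagtg

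MMP9 was detected on every array, and its differences were 0.06 ± 0.18 in A172 and -0.28 ± 0.15 in U87 (adjusted p = 0.999 and 0.390 with the block), the latter -0.098 without set 3. Without the control array of set 3 alone the U87 difference turned to 0.038. MMP3 (stromelysin 1), an activator of other metalloproteinases, was seen in U87 alone and was lower in all 4 pairs by -0.65 ± 0.21 (adjusted p = 0.202 with the block, just outside the threshold). Its difference was -0.31 without the control array of set 2 and -0.97 without the control array of set 3. MMP11, MMP19 and MMP21 were detected on all 14 arrays, and none of their probes had an adjusted p under 0.2 in either fit. MMP7 (matrilysin) entered the A172 test through its controls, with 3 control arrays and 1 knockdown array above background, and its pairs did not agree in direction, 1 higher and 2 lower.

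MMP28 (epilysin) was lower in all 7 pairs, though by -0.00125, too little to show at the precision printed, in set 1 of A172. It measured 2.03, 2.90 and 2.47 in the A172 controls and 2.03, 2.79 and 2.34 after knockdown, and 1.55, 1.59, 1.49 and 0.87 in the U87 controls and 1.1, 1.23, 0.90 and 0.54 after knockdown. The A172 groups overlapped almost entirely, and in U87 the control of set 4 lay among the knockdown arrays. The U87 difference of -0.43 ± 0.10 (SE) had adjusted p = 0.106 with the block but stayed under the fold threshold, and the A172 difference was -0.08 ± 0.11 (adjusted p = 0.986).

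The membrane-type metalloproteinases act on the matrix next to the cell. MMP14, which activates MMP2 at the cell surface, was detected on every array and was higher in all 4 U87 pairs by 0.46 ± 0.15 (adjusted p = 0.197 with the block), under the fold threshold, and by 0.54 (adjusted p = 0.210) without set 3. Both set 3 arrays were the highest of their groups, and the difference was 0.80 without the control array of set 3 and 0.20 without its knockdown array. MMP15 and MMP17 were detected on every array and had no adjusted p under 0.2. MMP16 was higher in all 3 A172 pairs by 0.94 ± 0.42 (adjusted p = 0.487 with the block), with 2 of 3 control arrays and 3 of 3 knockdown arrays above background, so that it entered the test through the knockdown group. Without the control array of set 2 the difference was 0.03.

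MMP24, a membrane type expressed in the nervous system, measured -1.44, -0.20 and -0.92 in the A172 controls and -2.00, -1.83 and -2.22 after knockdown. Every knockdown array lay below every control array. The difference was -1.16 ± 0.24 (SE), a 2.24-fold lower level, with adjusted p = 0.111 with the block and 1.00 without it. When outlier spots were kept the difference was still -1.16 but the call was lost (adjusted p = 0.979, in a range of 0.00859 to 1.00 over the blocked alternatives), and with normexp background correction the difference was -0.59 and still called. The call was also lost without set 2 or set 3 of A172 (0.50 and 0.490). In U87 it was above background on 2 of 4 arrays of each group, was not tested, and had no value on the knockdown array of set 3, whose spot was left out as an outlier.

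MMP25, which is anchored to the membrane by a lipid, was read by 2 probes that disagreed. Probe A_33_P3262124 measured -1.0, -1.77, -0.41 and -1.88 in the U87 controls and -1.78, -1.94, -1.82 and -2.32 after knockdown. All 4 pairs were lower, the groups overlapped, and the probe was above background on 4 control arrays but 1 knockdown array, so it entered the test through the controls. The size of its fitted difference is therefore not exact. Its difference of -0.70 ± 0.19 (adjusted p = 0.148 with the block) shrank to -0.46 without set 3 and to -0.17 with normexp, each time missing the fold threshold, and of 7 fits that left out 1 set of either line, 1 kept the call. The other probe, A_23_P376557, was detected on every array and differed by -0.23 ± 0.18 (adjusted p = 0.536), or -0.033 without set 3. In A172 neither probe was called.

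**Figure D5:**
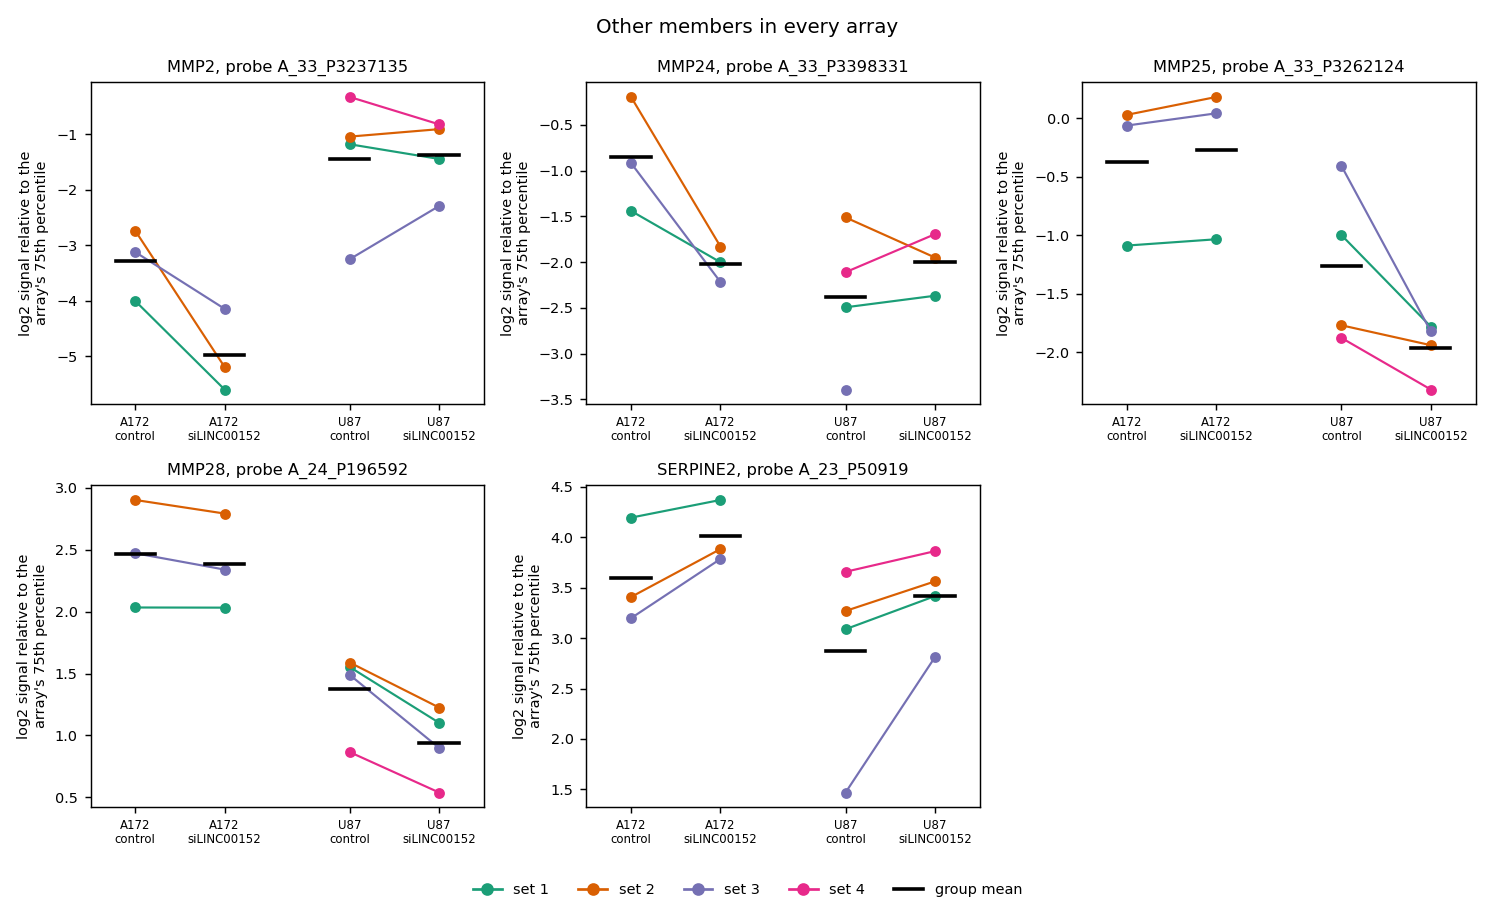
Log2 signal relative to the array's 75th percentile of MMP2, MMP24, MMP25, MMP28 and SERPINE2 in every array, with lines joining the arrays of 1 set and black bars for group means. The A172 knockdown arrays of MMP24 lie below all A172 controls, and those of MMP2 were not above background. For SERPINE2 the U87 control of set 3 is the lowest array.

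The TIMPs bind active metalloproteinases one to one. TIMP1, a secreted inhibitor detected on all 14 arrays, had differences of -0.14 ± 0.11 (SE) in A172 and -0.02 ± 0.10 in U87. TIMP2, which also takes part in the activation of MMP2, was detected on all A172 arrays and on 2 of 4 control and 4 of 4 knockdown arrays of U87, which it entered through the knockdown group, with no call. TIMP3, which stays bound to the matrix, was lower in all 3 A172 pairs by -0.50 ± 0.16 (adjusted p = 0.255 with the block). Its difference was -0.19 without the knockdown array of set 1 and -0.89 without the control array of set 1. TIMP4 was seen in U87 alone and was higher in all 4 pairs by 0.66 ± 0.27 (adjusted p = 0.270), or 0.40 without set 3 and 0.17 without its control array alone.

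Further groups of genes were read with the members. They were chosen with earlier results of these data known, so their shares of called probes are a description and not a test. Of 24 other pericellular proteases, 15 were tested in A172 and 14 in U87. With the block, 2 of their 19 tested probes were called higher and 2 lower in A172, and 3 of 18 higher in U87, where 3.26% and 4.19% of all tested probes were called. PRSS23, a secreted serine protease, measured 0.23, -0.92 and -0.85 in the A172 controls and -1.47, -2.13 and -2.60 after knockdown, with no overlap. It fell by 1.55 ± 0.16 and ADAM17, which sheds growth factors and cytokines, fell by 1.25 ± 0.17 in A172 (adjusted p = 0.00711 and 0.0201). ADAMTS1, which cuts proteoglycans such as versican, was higher in both lines, by 0.90 ± 0.24 in A172 and 0.69 ± 0.20 in U87 (adjusted p = 0.176 in each), and the lysosomal protease CTSL was higher in U87 by 0.62 ± 0.14 (adjusted p = 0.105). Without set 3 the U87 differences were 0.47 for CTSL, under the fold threshold, and 0.63 for ADAMTS1, and neither was called. Without the control array of set 3 alone CTSL was at 0.29. ADAMTS1 in A172 was at 0.43 without the knockdown array of set 1 and at 1.35 without that of set 2, and PRSS23 was at -0.88 with normexp.

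Of 25 regulators, 18 genes were tested in each line, and with the block 3 of 22 probes were called higher and 1 lower in A172 and 2 of 20 lower in U87, again beside 3.26% and 4.19% of all tested probes. PCSK5, a convertase that cuts precursor proteins, was higher in A172 by 1.42 ± 0.22 (adjusted p = 0.0332), or 0.58 with normexp. It was above background on 2 of 3 control and 3 of 3 knockdown arrays and so entered the test through the knockdown group. THBS1 probe A_33_P3415820 was higher in A172 by 0.99 ± 0.21 (adjusted p = 0.0979) and differed by -0.13 ± 0.18 in U87 (adjusted p = 0.727). S100A10, a plasminogen receptor subunit, was lower in both lines, by -0.97 ± 0.13 in A172 and -0.55 ± 0.11 in U87 (adjusted p = 0.0187 and 0.0902). The U87 difference was -0.96 without the control array of set 3 and -0.24 without the knockdown array of set 3. SPOCK2 was lower in U87 by -0.56 ± 0.10 (adjusted p = 0.0707). Of 18 matrix substrates, 1 of 23 tested probes (4.35%) was called lower in A172, near the 3.26% of all probes, and 2 of 19 were called in U87, beside 4.19%. In U87 COL1A2 was higher by 0.95 ± 0.14 and VCAN lower by -0.55 ± 0.14 (adjusted p = 0.0365 and 0.134), the latter -0.33 with normexp or without the control array of set 4. Of 7 blocked fits that left out 1 set, PRSS23, ADAM17, COL1A2 and, in A172, S100A10 kept their calls in 7, PCSK5, THBS1 and SPOCK2 in 5, S100A10 in U87 in 4, CTSL and VCAN in 3, and ADAMTS1 in 2 in A172 and 1 in U87. Over 10 other blocked processing settings THBS1, CTSL and SPOCK2 were called in 8, and VCAN and, in U87, S100A10 in 7. ADAMTS1 was called in 7 in A172 and 5 in U87, and PRSS23, ADAM17, PCSK5, COL1A2 and, in A172, S100A10 in all 10. Without the block, limma in the main processing called 0 probes of the 3 groups in either line. Over 9 other processing settings it called 0 to 2 protease probes and 0 to 1 regulator probes in A172, with PRSS23 and ADAM17 each called in 1 of 9, and ADAM17 was called in 3 of 21 fits that left out arrays or sets. In the main processing 7 of 64 tested probes in A172 and 2 of 57 in U87 had an unadjusted p under 0.05, beside 2.28% and 2.31% of all probes.

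Markers of the labelled cells were mixed. VIM, NES, CD44 and EGFR were detected on all 14 arrays, SOX2 on the 6 A172 arrays alone, GFAP on 1 A172 array and S100B on none. The epithelial markers EPCAM and CDH1 were seen on 1 array and on none. PTPRC and CD14 of myeloid cells, CDH5 and VWF of endothelial cells and the neuronal RBFOX3 gave signals above background on all 14 arrays for at least 1 probe. CSF1R was seen on 6 A172 arrays, 2 U87 control arrays and 1 U87 knockdown array, PECAM1 on the 6 A172 arrays alone, and AIF1 had no probe. The neuronal marker SYP was above background on knockdown arrays alone, 3 in A172 and 1 in U87. SYP entered the A172 test through the knockdown group alone and was not called (adjusted p = 0.423 in limma with the block). Its A172 control spots were not above background, so the order within pairs is not shown. The part of these markers in the results was not tested.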

How the data were processed

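The authors deposited the scanner output of 14 arrays, in which Feature Extraction 11.5.1.1 gave each spot a background-corrected intensity on a design with hg19 annotation. They also deposited normalized log2 values, which rank as the scanner values do on every array (Spearman 1), and their offset is not stated. Spots flagged as outliers were left out of the 58717 non-control spots. Log2 intensities had the array's 75th percentile subtracted and were averaged over a probe's spots. For the normexp alternative the median signal was used, since the mean signal was not in the files. The model, limma 3.58.1 in R 4.3.3 with 4 group means and Benjamini-Hochberg adjustment within a line, was tested on simulated data. Accessions were named through RefSeq's gene table for GRCh38.p14. Set numbers paired the arrays: deviations from group means correlated by 0.675 to 0.794 in A172 and 0.373 to 0.864 in U87, against at most -0.0436 and 0.411 between sets. Deviations from a group's own mean cancel out, which lowers the values between sets. The U87 control of set 1 correlated by 0.373 with its own knockdown array and by 0.403 with that of set 2. The check thus does not bear out the pairing of that set. In A172 a set is also a slide, and the effects of each cannot be told apart. This check was made after the calls with and without the block had been seen, and the member calls rest on the block. Arrays were given by value for members called in a fit or moving the same way in all 7 pairs. From the wider lists up to 6 genes per line were named by size, with array values for PRSS23 alone. Members and lists were chosen with earlier results of these data known. The number of arrays limits the precision.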

Additional observations from a re-analysis of the deposited data

Results flagged for a closer look

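Among the 17 member probes tested in both lines, the knockdown effect went opposite ways in the lines for 3, in every pair of each line, beside 626 of all 21163 probes tested in both lines (2.96%). The second PLAU probe, A_33_P3306146, did so too, but was above background on 2 of 3 arrays of each A172 group and was not tested there. For PLAU probe A_23_P24104 the A172 effect minus the U87 effect was -2.18, and the test of this difference passed with the set as a block (adjusted p = 0.0412) and not without it. For PLAUR it was -0.65 (adjusted p = 0.407 with the block) and for MMP25 probe A_33_P3262124 it was 0.81 (adjusted p = 0.521 with the block), so neither passed. MMP25 probe A_33_P3262124 was above background on 4 control arrays and 1 knockdown array of U87, so it entered the U87 test through the controls alone.

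In 7 of 40 U87 groups of tested member probes, 1 array lay far from the other 3, beside 9.35% of 43812 such groups over all tested probes. Of these 7, 6 were arrays of set 3, as were 72.8% of the arrays that lay apart over all probes. Probes on 1 array are not independent, so these counts are not a test. Among the controls, set 3 was high for MMP14 (2.31, others 0.89 to 1.06) and PLAUR (3.51, others 2.62 to 2.66), and low for TIMP4 (-3.28, others -1.41 to -1.16) and PLAU probe A_33_P3306146 (0.66, others 1.54 to 1.63). Among the knockdown arrays, set 3 was high for MMP14 (2.53, others 1.37 to 1.55) and PLAUR (3.66, others 2.78 to 2.83). The control of set 4 was low for MMP28 (0.87, others 1.49 to 1.59). The part of the lower signal of set 3 in these values was not tested.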

How the results depend on the processing

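The siLINC00152 target was called in both lines under every alternative, and its U87 difference of -2.73 was -1.52 with normexp. Without a block, probes called in A172 (52) and U87 (11) were 133 and 4 with normexp background correction, 27 and 7 at an adjusted p under 0.05, and in A172 34 with no detection filter and 14 with each line fitted by itself. No member probe was called in any of these.

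With the replicate block, 924 and 918 probes were called, 3 member probes in each line (in U87 of 2 genes) and 1 for the difference between lines. In the same order the counts were 757, 769, 2, 3 and 1 with quantile normalization, 636, 142, 1, 2 and 2 with normexp, and 587, 330, 2, 2 and 2 with no filter. The following were chosen after seeing the data: 680, 638, 0, 3 and 1 with the authors' deposited values, 916, 902, 4, 4 and 1 with the percentile over detected probes, 270, 112, 0, 2 and 1 at an adjusted p under 0.05, 921, 917, 1, 3 and 1 with outlier spots kept, and 945, 628, 3, 3 and 1 with a filter of every array of a group. With each line by itself, also chosen after seeing the data, there were 1612, 676, 4 and 2. The cause was not tested.

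Leaving out an array or set gave 4 to 127 probes in A172 and 5 to 17 in U87 without the block, with 0 member probes. With the block, leaving out A172 set 1, 2 and 3 gave 345, 269 and 226 probes in A172 and 755, 567 and 466 in U87. Leaving out U87 set 1, 2, 3 and 4 gave 675, 704, 1411 and 734 in A172 and 275, 300, 729 and 306 in U87. Between 0 and 4 A172 member probes, 2 or 3 U87 member probes and 0 or 1 for the difference were then called. PLAU in U87 was called for both probes in all 10 blocked settings and all 7 left-out sets. PLAU in A172 was called in 4 of 10 and 2 of 7, MMP2 and MMP24 each in 6 of 10 and 5 of 7, and MMP25 in 6 of 10 and 1 of 7. The A172 difference of MMP28, which was not called, was -0.299 without the control array of set 1 and turned to 0.14 without the control array of set 2 and to 0.097 without the knockdown array of set 1, and the cause was not tested. What the dimmer signals of the U87 arrays limit was not tested.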

Other observations

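CD44, the cell-surface receptor of hyaluronan and a docking site for metalloproteinases, had 1 of its 2 probes called among the cell markers. With the set as a block, 1 of 19 tested marker probes was called in A172, beside 3.26% of all tested probes, and 0 of 14 in U87. Probe A_33_P3294509 was lower in A172 by -1.13 ± 0.12 (SE, adjusted p = 0.00807 with the set as a block and 1.00 without it) and differed by 0.12 ± 0.10 in U87 (adjusted p = 0.559), and the test of the difference between lines had adjusted p = 0.0861 with the block. The A172 difference was -0.67 without the control array of set 1 and -1.51 without the knockdown array of set 1. In U87 this probe's difference turned to -0.29 without the control array of set 3 and was 0.48 without the knockdown array of set 3. The other probe, A_21_P0000152, differed by -0.24 ± 0.14 in A172 (adjusted p = 0.694 with the block), so the probes disagreed in size.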
